A study of Danio rerio with 12 samples.

Results

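Growth cone genes were followed in intact and injured zebrafish retina. They were gap43, stmn2a, marcksb, tmsb and flna, chosen as all probe sets whose platform annotation gave 1 of these symbols alone. Each gene had 1 probe set, so they make up 5 of the 8793 named genes and 5 of the 10795 probe sets with a single symbol.

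The study profiled adult zebrafish tissue on 12 Affymetrix arrays: 1 of unlesioned brain, 5 of lesioned retina, 5 of control retina, and 1 more of retina that is titled a "true" control. Control and lesioned retinas came from matched animals, at least 8 for each condition by the design text, with 1 array of each at 2, 3, 5, 7 and 14 days post-lesion. All animals were adults, and the labels name no transgene, mutant allele or drug for any group. The sources used here do not give strain, sex, exact age, the way the lesion was made, or whether the animals of a condition were pooled onto its array. The true control and the 5 control retinas are called the 6 unlesioned retinas.

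A growth cone is the motile tip of a growing axon, where signals at the membrane steer the assembly of actin filaments and microtubules. Fish, unlike mammals, can regrow the axons of retinal ganglion cells after injury and can replace lost retinal neurons from Müller glia, its radial glial cells. gap43 encodes a membrane-bound phosphoprotein of growth cones and is a widely used marker of axon growth. marcksb encodes a MARCKS protein which, like GAP43, is a substrate of protein kinase C at the inner face of the membrane, and which binds actin. stmn2a encodes a neuronal stathmin, related to mammalian SCG10, a family that binds tubulin and destabilises microtubules. tmsb encodes a beta-thymosin, a small peptide that binds actin monomers, and flna encodes filamin A, which crosslinks actin filaments and tethers them to the membrane in many cell types.

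The values are linear signal intensities, and each array had been scaled to a common mean. Array medians lay between 134 and 205, and the lower quartiles between 34.6 and 80.0. The arrays formed 2 blocks by their hybridization controls. Brain, the true control and days 2 and 14 made up block 1, with a GAPDH 5'/3' signal ratio, a measure of RNA integrity, of 0.692 to 0.854. Days 3, 5 and 7 made up block 2, with a ratio of 0.103 to 0.245. Both arrays of a day lay in the same block, so days and blocks cannot be told apart. The summed signal of 13 photoreceptor markers was 231559 to 272932 in the unlesioned retinas, 193740 to 260089 in the lesioned retinas and 3358 in brain, so the retina and brain labels fit these markers.

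gap43 was higher in every lesioned retina than in any unlesioned one. In control retina its signal was 281.2 on day 2, 348.2 on day 3, 264.2 on day 5, 309.1 on day 7 and 268.3 on day 14, and in the true control it was 331.7. In lesioned retina it was 1675.2, 938.1, 667.0, 682.8 and 738.8 on the same days. The groups did not overlap, with all 5 lesioned arrays above all 6 unlesioned retinas. The share of all probe sets with such a separation was not counted, here or for the genes below. The highest lesioned array was that of day 2, and the other 4 lay close together. The means were 294 ± 34.9 in control and 940.4 ± 425 in lesioned retina (SD, n = 5 each).

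marcksb, the other membrane substrate of protein kinase C, was also higher in lesioned retina on every day. Its control signal was 991.2, 1565.6, 1253.6, 1870.8 and 1669.6 on days 2, 3, 5, 7 and 14, with 1198.5 in the true control. Its lesioned signal was 2005.2, 1866.6, 2414.3, 5240.1 and 2816.6. The peak fell on day 7, and 4 of the 5 lesioned arrays lay above all unlesioned retinas. The exception was day 3, whose lesioned array lay just under the day 7 control. The means were 1470.2 ± 348 in control and 2869 ± 1377 in lesioned retina.

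stmn2a, the microtubule regulator, showed little difference until day 14. Its control signal was 1049.2, 811.5, 581.6, 989.6 and 1133.9 in day order, and 1014.9 in the true control. Its lesioned signal was 1171.4, 781.1, 697.7, 850.1 and 1930.8. The groups overlapped, with the lesioned arrays of days 2 and 14 above all unlesioned retinas and the other 3 within their range. Days 2 and 14 lie in array block 1, whose unlesioned retinas were also brighter for this gene than those of block 2. The means were 913 ± 219.9 in control and 1086 ± 505 in lesioned retina.

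tmsb, the actin monomer binder, was the dimmest against its own arrays. Its control signal was 84.3, 77.4, 46.2, 7.5 and 104.1 in day order, and 99.9 in the true control. All 5 control values lay under the median of their array, and the value of 7.5 on day 7 also lay under the lower quartile. Its lesioned signal was 180.1, 69.6, 248.3, 377.3 and 458.4. All but the day 3 array lay above all unlesioned retinas, and the highest was that of day 14. The means were 63.9 ± 37.8 in control and 267 ± 155 in lesioned retina.

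flna, the actin crosslinker, had its highest lesioned signal on day 2 and its lowest on day 14. Its control signal was 396.8, 509.1, 593.5, 710.5 and 326.5 in day order, and 381.1 in the true control. Its lesioned signal was 1813.8, 1352.0, 1508.7, 1137.8 and 421.5. The first 4 lesioned arrays lay above all unlesioned retinas and the day 14 array lay within their range. The day 14 array lay above the unlesioned retinas of its own array block, which were 326.5 to 396.8. The means were 507 ± 153 in control and 1247 ± 523 in lesioned retina.

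For stmn2a, tmsb and flna the unlesioned retinas of the array blocks did not overlap. Unlesioned stmn2a was 1014.9 to 1133.9 in block 1, above the 581.6 to 989.6 of block 2. Unlesioned tmsb likewise was 84.3 to 104.1 in block 1, above the 7.5 to 77.4 of block 2. Unlesioned flna ran the other way, at 326.5 to 396.8 in block 1, below the 509.1 to 710.5 of block 2. Unlesioned gap43 and marcksb overlapped between blocks. The share of all probe sets whose blocks do not overlap was not counted, and the array medians were also lower in block 2.

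**Figure D1:**
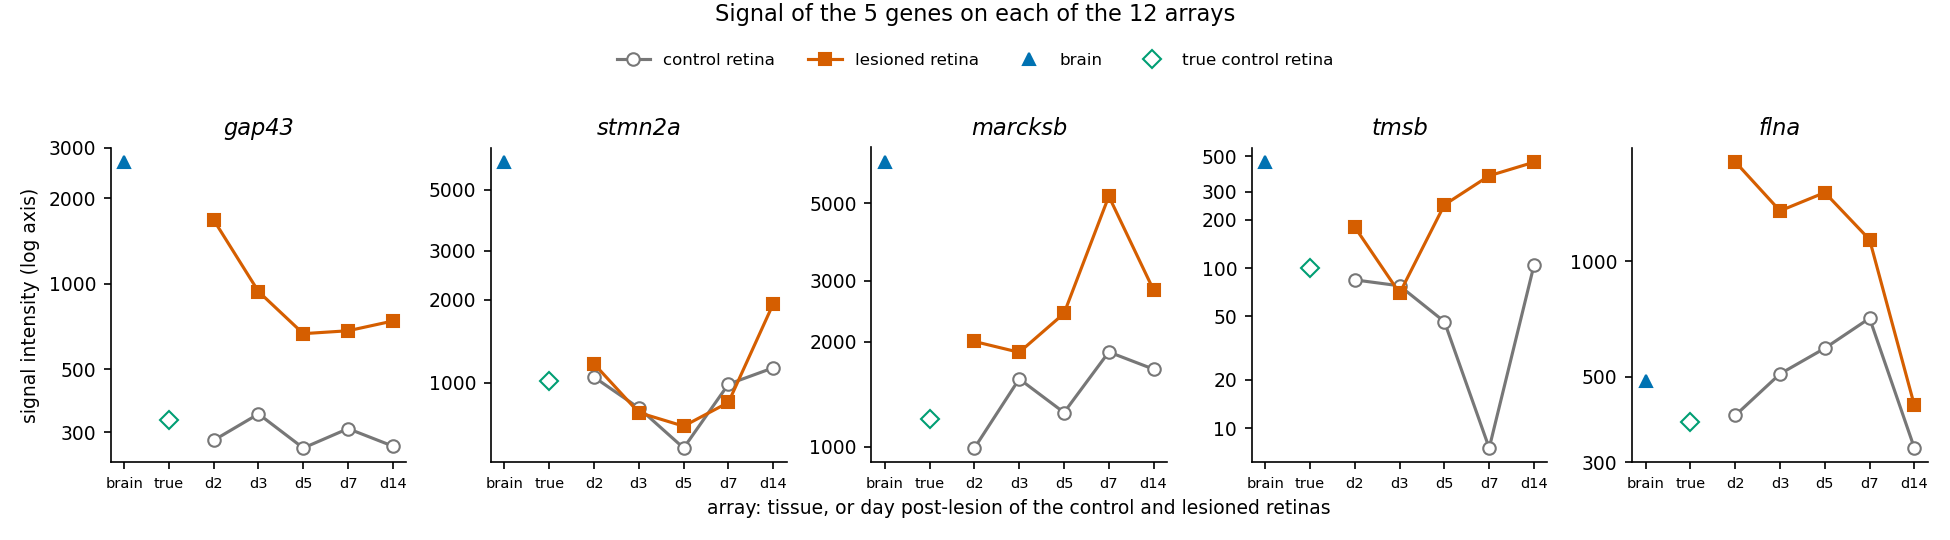
Signal intensity (log axis) of each gene on the 12 arrays: brain, the true control retina, and the control (open circles) and lesioned (squares) retinas of each day. gap43 lies above its control on all days, at 667 to 1675 against 264 to 348, while stmn2a separates from its control mainly on day 14 (1931 against 1134).

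Matching each lesioned retina with the control of its day removes what the arrays of a day share, such as the array block. The matched difference is lesioned minus control on the log2(signal + 50) scale, and it understates the change of dim genes. For gap43 it was 2.38, 1.31, 1.19, 1.03 and 1.31 on days 2, 3, 5, 7 and 14, or 5.21-fold on day 2 and 2.04-fold on day 7 on that scale. These were the 11th, 66th, 99th, 112th and 10th largest of 9301 probe sets. The day 2 difference was the largest of the 5 days. The rank on day 14 was as high as on day 2, since the differences of all probe sets had a narrower spread on day 14.

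For marcksb the matched difference was 0.98, 0.25, 0.92, 1.46 and 0.74, with ranks of 128, 2372, 199, 34 and 70. For tmsb it was 0.78, -0.09, 1.63, 2.89 and 1.72, with ranks of 220, 5493, 39, 2 and 2. The tmsb value on day 7 was taken against the control signal of 7.5, under that array's lower quartile, so its size and rank have no firm meaning. Both genes had their smallest difference on day 3, and that of marcksb was largest on day 7. On day 14 tmsb was 3.30-fold and marcksb 1.67-fold above the control.

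For flna the matched difference was 2.06, 1.33, 1.28, 0.64 and 0.32, with ranks of 19, 63, 83, 400 and 713. It was smaller on each later day, from 4.17-fold on day 2 to 1.25-fold on day 14. For stmn2a it was 0.15, -0.05, 0.24, -0.21 and 0.74, with ranks of 2592, 5067, 2254, 7055 and 68. The sign of the stmn2a difference was mixed, and only its day 14 value lay above the 95th percentile of all probe sets. That percentile was 0.55, 0.70, 0.68, 0.61 and 0.39 on the 5 days, and the median lay between -0.01 and 0.01. The genes gap43, marcksb and flna were higher in lesioned retina on all 5 days, as were 867 of the 9301 probe sets, or 9.32%.

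**Figure D2:**
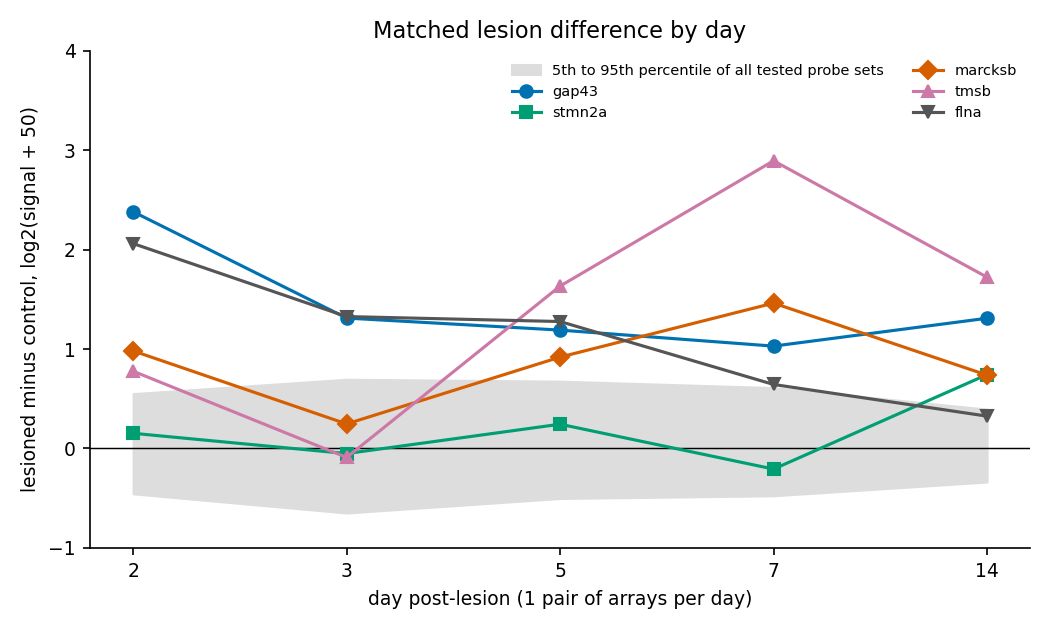
Matched difference between lesioned and control retina, log2(signal + 50), by day post-lesion, for the 5 genes, with the 5th to 95th percentile of all 9301 tested probe sets shaded. gap43 and flna are highest on day 2 (2.38 and 2.06), marcksb on day 7 (1.46) and stmn2a on day 14 (0.74), while the day 7 point of tmsb (2.89) is set against a control near the dim end of its array.

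Over the 5 days, gap43, flna and marcksb rose in lesioned retina, by limma with the day as a block and an adjusted p under 0.05. These are 3 of the 4 genes that were bright enough to be tested in both groups, and none fell. Of all 9301 probe sets tested, 3.56% rose by the same rule (331, with 50 lower), and their median difference was -0.01. gap43 rose by 1.44 ± 0.16 (SE; limma adjusted p = 0.000230), higher on 5 of 5 days. flna rose by 1.13 ± 0.18 (adjusted p = 0.00304), higher on 5 of 5 days. marcksb rose by 0.87 ± 0.14 (adjusted p = 0.00237), higher on 5 of 5 days.

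tmsb, the fifth gene, is left out of that count, because its control mean of 63.9 lay under the minimum of 114 that a probe set needed to be tested and it entered only through its lesioned arrays. It differed by 1.39 ± 0.29 (limma adjusted p = 0.0142), higher on 4 of 5 days. Since its lesioned arrays brought it into the test, that p-value is not counted as support for a rise. stmn2a differed by 0.18 ± 0.13 and did not pass (adjusted p = 0.509), with a 95% interval from -0.09 to 0.45, which leaves out a mean rise of 1 in log2. In whole tissue, fewer cells of a type and less RNA per cell cannot be told apart, and since nothing says which arrays come from separate animals, p-values measure only the spread between arrays.

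These calls rested on the matching by day: with the day left out, none of the 5 genes passed (limma adjusted p of 0.205 for gap43, 0.676 for tmsb, 0.773 for flna and 0.818 for marcksb). Over days 3, 5 and 7 alone, gap43, marcksb and flna passed, with differences of 1.18 for gap43, 0.88 for marcksb and 1.08 for flna. There tmsb differed by 1.48 and also passed, but against dim control signals of 77.4, 46.2 and 7.5. That pass is likewise not counted as support for a rise. Over days 2 and 14 alone, with 1 residual degree of freedom, 0 of 9301 probe sets passed by limma and 784 had an unadjusted p under 0.05. The differences there were 1.85 for gap43 (adjusted p = 0.153), 0.86 for marcksb, 1.25 for tmsb and 1.19 for flna. The GAPDH 5'/3' ratio of the lesioned array was below that of its control on all days, by 0.03, 0.62, 0.35, 0.25 and 0.08 in log2. With that ratio as a covariate only gap43 passed (1.76 ± 0.24, adjusted p = 0.0150). The others were at 1.14 ± 0.21 for marcksb (limma adjusted p = 0.0502), 1.92 ± 0.44 for tmsb (0.132) and 1.104 ± 0.30 for flna (0.252). Their SE were larger than without the covariate, with 3 residual degrees of freedom. Of all 9301 probe sets 10 passed, so this fit cannot tell whether RNA integrity has a part in the differences. Leaving out day 5 or day 7 ended the call of tmsb (1.33 and 1.01, adjusted p of 0.0747 and 0.0677), while gap43, marcksb and flna passed without any single day.

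The change with time was tested as the slope of the matched difference on log2 of the day. None of the 5 genes passed, against 10 of 9301 probe sets, or 0.108%, all with a falling slope. There were 329 probe sets at an unadjusted p under 0.05. The slope of flna was -0.59 ± 0.11 for each doubling of the day, with an unadjusted limma p of 0.000102 and an adjusted p of 0.0731. Without day 3 it was -0.64 and passed (adjusted p = 0.0461). The slope of gap43 was -0.33 ± 0.14 and that of tmsb 0.66 ± 0.24, with unadjusted limma p of 0.0375 and 0.0162 and adjusted p of 0.9997 for both. For marcksb it was 0.09 ± 0.14 and for stmn2a 0.18 ± 0.13.

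Each lesioned array was also set against the 6 unlesioned retinas, which the 5 comparisons share. With 1 lesioned array a day, its spread was taken to be that of the unlesioned retinas. On day 2, gap43 was the only member called, at 2.31 ± 0.24 (limma adjusted p = 0.0276), among 6 of 9301 probe sets (0.0645%), all higher. Without any 1 of the 6 unlesioned retinas it was not called (adjusted p of 0.0628 to 0.102), nor was any other probe set. On days 3, 5, 7 and 14 no probe set passed limma's adjusted threshold (0% called), with 761, 397, 395 and 114 probe sets at an unadjusted p under 0.05.

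On those later days gap43 differed by 1.501, 1.04, 1.07 and 1.18, each ± 0.24, with adjusted p of 0.353 to 0.889 and unadjusted limma p under 0.05 on all 4. For flna the differences were 1.84 ± 0.39 on day 2, 1.43 on day 3, 1.58 on day 5, 1.19 on day 7 and -0.14 on day 14. Those of days 3, 5, 7 and 14 became 1.11, 1.26, 0.87 and 0.18 when the array block was a term. With the array block as a term the day 2 difference of flna was 2.16 ± 0.24 and passed (limma adjusted p = 0.00624). The largest difference of marcksb was 1.87 ± 0.36 on day 7, that of tmsb 2.16 ± 0.53 on day 14 and that of stmn2a 1.04 ± 0.36 on day 14. None of these 3 passed.

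Brain served as a reference tissue that holds many neurons and their axons. gap43 had a brain signal of 2682.0 against 300.45 ± 34.8 in unlesioned retina (SD, n = 6), 8.93 times the mean. stmn2a had 6297.7 against 930.1 ± 201, or 6.77 times, and marcksb 6581.6 against 1425 ± 331, or 4.62 times. For these 3 genes the brain lay above all 11 retinas. tmsb had 461.0 in brain against 69.9 ± 36.8, and flna 487.2 against 486 ± 146. The brain value of tmsb also lay above every retina, by a small margin over the day 14 lesioned array. That of flna lay between the unlesioned retinas of the 2 array blocks. It was above those of block 1 (326.5 to 396.8), which holds the brain array, and below those of block 2 (509.1 to 710.5).

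Of the 4 genes tested on both sides, gap43, stmn2a and marcksb were higher in brain than in unlesioned retina, where 6.81% of the 9301 probe sets were called higher (633, with 440 lower). The median of all probe sets was 0.15. gap43 was higher by 2.97 ± 0.25 (limma adjusted p = 0.000190). stmn2a was higher by 2.72 ± 0.35 (adjusted p = 0.00199). marcksb was higher by 2.1999 ± 0.35 (adjusted p = 0.00557).

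tmsb was higher in brain by 2.17 ± 0.53 (limma adjusted p = 0.0364), a call that was lost when the true control or the control of day 2, 3 or 5 was left out (0.0522 to 0.0653). Its unlesioned mean lay under the minimum for this comparison too, so it entered only through the brain array and is not counted above. flna differed by 0.05 ± 0.39 (adjusted p = 0.959), with a 95% interval from -0.86 to 0.95. With 1 brain array, its spread was taken to be that of the retinas.

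The brain signal also gave a scale for the lesioned retinas. The mean of gap43 was 11.2% of the brain signal in unlesioned and 35.1% in lesioned retina, and its highest lesioned array reached 62.5%. For marcksb these shares were 21.6%, 43.6% and 79.6%, and for tmsb 15.2%, 57.9% and 99.4%. For stmn2a they were 14.8%, 17.2% and 30.7%. The mean of flna over both array blocks was 99.8% of the brain signal in unlesioned and 256% in lesioned retina. For flna 4 of the 5 lesioned arrays lay above the brain.

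Set against the 5 lesioned retinas, only stmn2a was called higher in brain, at 2.58 ± 0.53 (limma adjusted p = 0.0291), where 3.31% of probe sets were. That call was lost without the lesioned array of day 3, 5 or 7 (adjusted p of 0.0580 to 0.0698). gap43 was at 1.55 ± 0.50 (adjusted p = 0.133), with an interval from 0.38 to 2.72, and passed without the lesioned array of day 2 (1.77, adjusted p = 0.0349). marcksb was at 1.29 ± 0.54 (adjusted p = 0.240) and tmsb at 0.86 ± 0.71 (adjusted p = 0.555). flna was at -1.13 ± 0.68 (adjusted p = 0.415), with an interval from -2.71 to 0.45. This comparison shares the brain array with the one before.

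**Figure D3:**
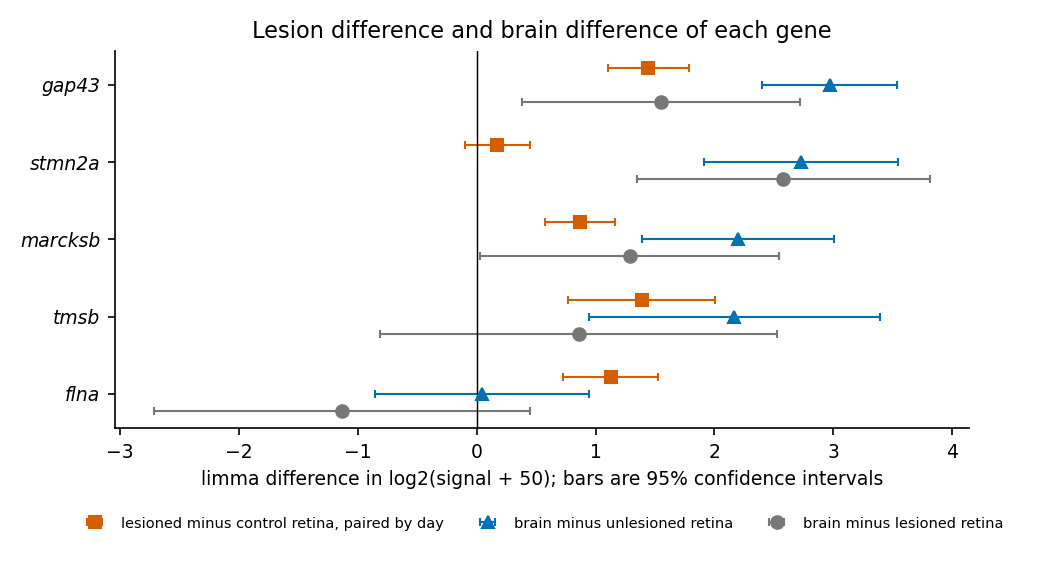
Difference of each gene in log2(signal + 50) from limma, with 95% confidence intervals, for lesioned against control retina paired by day, brain against unlesioned retina and brain against lesioned retina. The interval of gap43 lies above 0 in all 3 comparisons (1.104 to 1.78 for the lesion). These intervals are not adjusted for the number of probe sets, and gap43 was not called in brain against lesioned retina. flna is higher after the lesion (1.13) and near 0 between brain and the unlesioned retinas of both array blocks together (0.05).

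Close relatives of the members gave a comparison within families. Of 13 listed stathmin, MARCKS and thymosin genes, 7 were on the array and were tested, and 1 rose, 0 fell, with a median of 0.17. Among all probe sets 3.56% rose, and the list was chosen with earlier results known, so its share is no test. The gene that rose was marcksa, the other MARCKS paralog, by 0.80 ± 0.17 (limma adjusted p = 0.0142). Its matched difference was 0.24, 0.26, 0.95, 1.45 and 1.07 over the 5 days, largest on day 7 like that of marcksb. A second probe set of marcksa differed by 0.11 ± 0.13 and did not pass. That second probe set was the brighter in control retina, with a mean of 142.8 against 119.2. The first stood for the gene through its lesioned mean of 262.0 against 151.1, and the count of 1 rests on that choice.

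Among the stathmins, stmn4, another neuronal member, differed by 0.17 ± 0.14 (limma adjusted p = 0.548). Its matched difference on day 14 was 0.85, its largest, and day 14 was also the highest day of stmn2a. stmn1b, a further stathmin, differed by -0.08 ± 0.11 (adjusted p = 0.777). Among the beta-thymosins, tmsb4x differed by 0.31 ± 0.09 (adjusted p = 0.0840), tmsb2 by 0.25 ± 0.10 (0.209) and tmsb1 by -0.08 ± 0.11 (0.768). The MARCKS-like gene marcksl1b differed by 0.06 ± 0.11 (0.823). None of these 6 passed. Cross-hybridization between paralogs was not examined, since no probe sequences were used here.

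**Figure D4:**
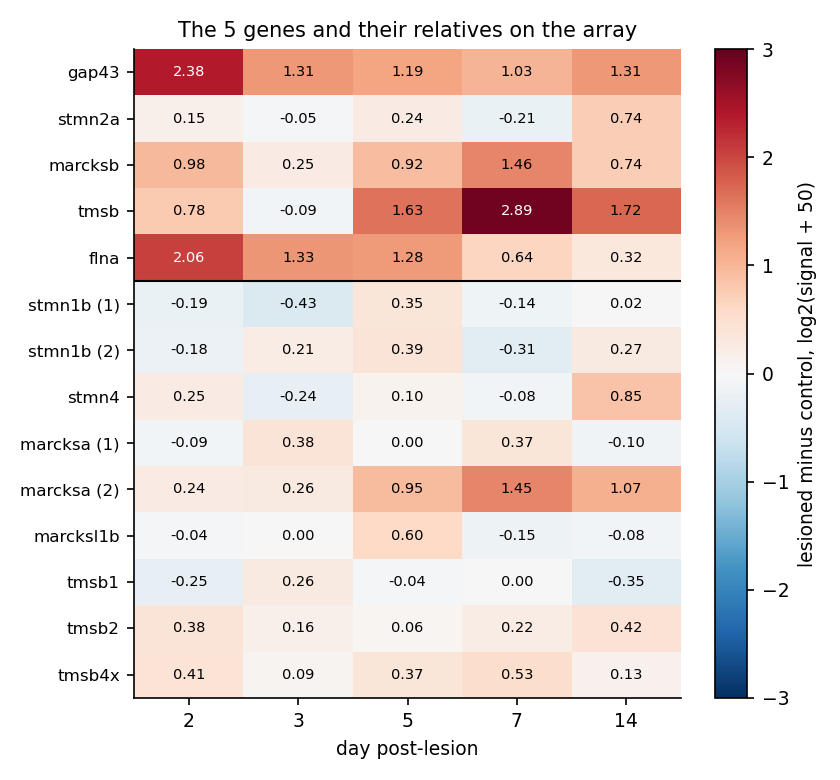
Matched difference, lesioned minus control in log2(signal + 50), on each day (columns) for the 5 genes (above the line) and their stathmin, MARCKS and thymosin relatives (below). The marcksa probe set with the higher mean signal over all arrays is higher on days 5, 7 and 14 (0.95, 1.45 and 1.07). The differences of marcksl1b and tmsb1 lie between -0.35 and 0.60.

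Beyond these relatives, 5 lists covered the machinery that growth cone proteins act on. Of 38 growth cone and microtubule regulators, 20 were tested, and 3 rose and 0 fell, with a median of 0.05. They were the tubulin gene tubb5, at 1.23 ± 0.21 (limma adjusted p = 0.00388), and mapre1a and mapre1b, which encode EB1-type proteins of growing microtubule ends, at 0.54 ± 0.11 (0.0117) and 0.41 ± 0.09 (0.0219). Of 40 genes of axon adhesion and guidance, 12 were tested and 0 rose or fell by limma, with a median of 0.01. Of all probe sets 3.56% rose, and 0 of 12 lies near that share.

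The actin list was the longest. Of 67 listed genes of actin binding and crosslinking, 38 were tested, and 12 rose and 0 fell, with a median of 0.27. The share of all probe sets that rose was 3.56%. Since the list was chosen with earlier results of these data known, its share is no test. Of the 12, cfl1l and tagln had control means under the minimum and entered only through the lesioned arrays. arpc1b and arpc5a, subunits of the Arp2/3 complex that branches actin filaments, rose by 1.08 ± 0.12 (limma adjusted p = 0.000251) and 0.87 ± 0.10 (0.000321). pfn1, a profilin that feeds actin monomers to growing filaments, rose by 1.45 ± 0.20 (0.00111). tagln2, a transgelin that binds actin filaments, rose by 0.86 ± 0.12 (0.00104).

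Of 16 transcription factors linked to axon regeneration, 11 were tested, and 6 rose and 0 fell, with a median of 0.45. Among all probe sets 3.56% rose, but this list too was chosen with earlier results known, so its share is no test. The stress-response factors atf3 and jun rose by 1.78 ± 0.20 (limma adjusted p = 0.000251) and 1.54 ± 0.21 (0.000769). sox11b, a SoxC factor of immature neurons, rose by 0.98 ± 0.16 (0.00242), and stat3, a cytokine signal transducer, by 0.82 ± 0.17 (0.0117). A second probe set of jun did not pass.

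Of 9 neurofilament and related genes, 4 were tested, and 2 rose and 0 fell, with a median of 0.46. prph, the intermediate filament gene peripherin, rose by 1.01 ± 0.15 (limma adjusted p = 0.00173), with a second probe set that did not pass. vim, vimentin, which is also a Müller glia gene, rose by 0.69 ± 0.11 (0.00237). Over all 6 lists, 24 of 92 tested genes rose, cfl1l and tagln included, and 0 fell, with a median of 0.17, against 3.56% and -0.01 over all probe sets. These lists and the marker lists below were chosen with earlier results of these data known. Their shares are therefore no test against the share of all probe sets.

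Markers of some other cell types were called beside the members. The summed signal of 16 immune cell and microglia markers was 10378 to 12885 in unlesioned and 13118 to 25412 in lesioned retina. It was higher in the lesioned array on all 5 days, by 0.45, 0.46, 0.98, 0.75 and 0.22 in log2. In control retina apoeb made up most of the sum, with a mean of 7709 (10783 in lesioned retina). The next brightest, cd74a and cd74b, were lower on day 2 (-1.61 and -0.70), higher on the later days and not called. Of 13 such markers tested 9 rose and 0 fell, where 3.56% of all probe sets rose. Of the 9, lcp1, ptprc, ctss2.1 and marco had control means under the minimum and entered only through the lesioned arrays. Among the other 5 were ctss2.2, a cathepsin S gene, at 1.16 ± 0.17 (limma adjusted p = 0.00136), and coro1a, a coronin gene of leukocytes, at 0.93 ± 0.16 (0.00388). mpx, a neutrophil enzyme, and csf1ra were too dim to be tested, and 1 of the 16 lay under the lower quartile on every retina. coro1a is also 1 of the 12 actin genes that rose, and a second probe set of ctss2.2 did not pass.

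Against the same 3.56%, 3 of 10 Müller glia markers tested rose and 0 fell: icn at 1.003 ± 0.12 (limma adjusted p = 0.000290), fabp7a at 1.42 ± 0.18 (0.000549) and vim. The median of the 10 was 0.18. Of those not called, rlbp1a, aqp1a.1, glula and cahz differed by -0.23, -0.26, -0.13 and -0.12. The others, slc1a2b, gfap and glulb, differed by 0.007, 0.35 and 0.47. The summed signal of 11 Müller glia markers was 36824 to 43181 in unlesioned and 36201 to 48744 in lesioned retina. The sum of 7 vascular and mural markers was 425 to 1148 in unlesioned and 776 to 2243 in lesioned retina, higher on all 5 days, and 1 of 4 tested rose (tagln, also on the actin list, and entered through its lesioned arrays). The sum of 6 erythrocyte markers was higher on 4 of 5 days, at 932 to 11701 and 2879 to 20593, with 0 of 3 tested called.

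Retinal ganglion cells are the cells whose axons form the optic nerve. Of 5 of their markers tested 0 rose or fell by limma, with a median of -0.07. With 3.56% of all probe sets called higher, 0 of 5 lies near the share of all. thy1 was higher on all 5 days, by 0.50 ± 0.14 over them (limma adjusted p = 0.0533). isl2a, pou4f2, sncgb and elavl3 differed by -0.05, -0.11, -0.07 and -0.14. The summed signal of 6 markers was 6668 to 12638 in unlesioned and 6550 to 11380 in lesioned retina, higher on 2 of 5 days. Much of that sum was sncgb, with a control mean of 6885, and the sum was 15757 in brain. Of 13 photoreceptor markers 0 rose and 2 fell, the green cone opsin opn1mw1 by 0.51 ± 0.11 (limma adjusted p = 0.0133) and the rod transducin subunit gngt1 by 0.35 ± 0.09 (0.0408). The median of the 13 was -0.22, and 50 of all 9301 probe sets were called lower. Of 8 brain neuron and regional markers tested 0 were called by limma, with a median of -0.05. The part of these cell types in the lesion differences of gap43, marcksb, tmsb and flna was not tested.

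**Figure D5:**
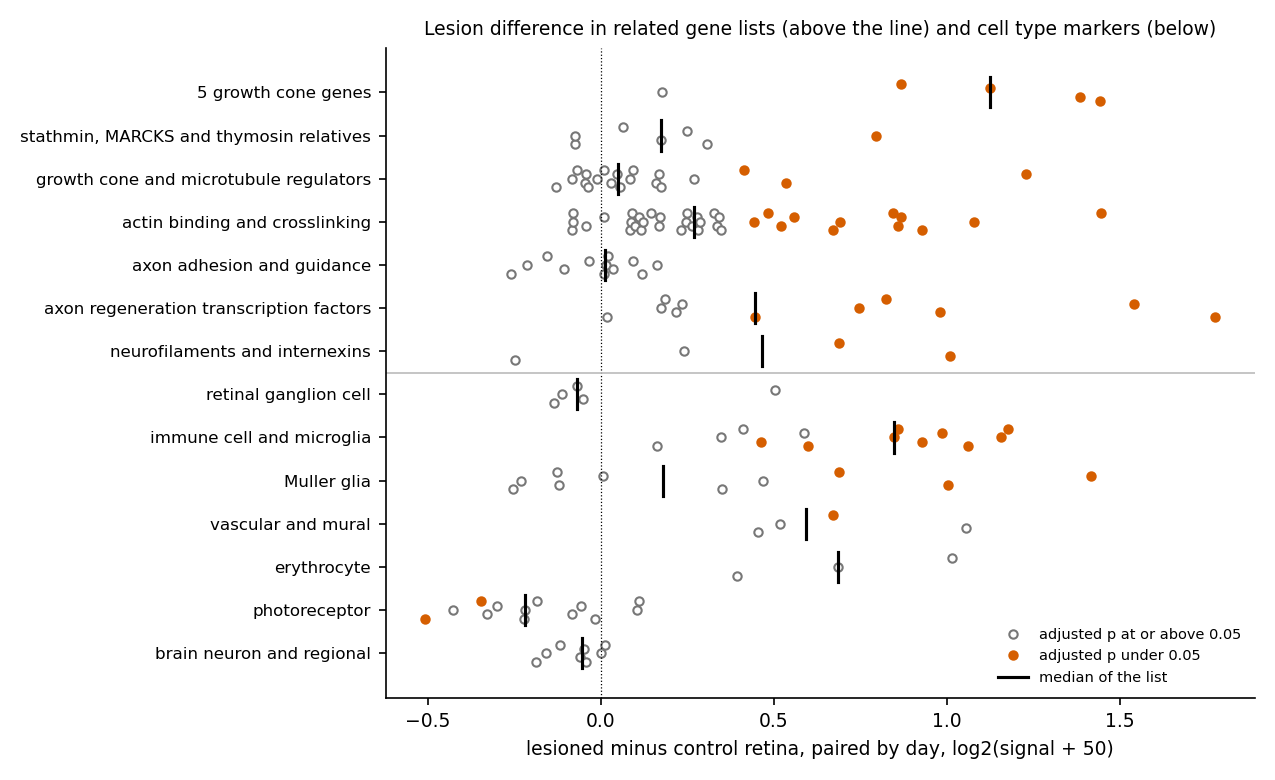
Difference between lesioned and control retina paired by day, log2(signal + 50), of each tested gene in the related gene lists (above the line) and cell type marker lists (below), with filled points at a limma adjusted p under 0.05 and a bar at the median. The actin list has 12 of 38 genes filled and the immune list 9 of 13, while the adhesion and guidance list has 0 of 12 and the retinal ganglion cell list 0 of 5. Of the filled genes, 2 of the actin list and 4 of the immune list entered only through their lesioned arrays. The lists were chosen with earlier results of these data known, so their shares are no test. Of all probe sets 3.56% were called higher, and in lists this small 0 lies near that share.

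Genes with the most similar pattern were found over 6 values: the 5 matched differences and brain minus the mean of the unlesioned retinas. Likeness was the root mean square difference in log2 over those values among 6543 candidate probe sets. The nearest to gap43 were b2m (0.51), the light chain of MHC class I, the galectin lgals2a (0.61) and cd68 (0.61), a lysosomal glycoprotein of macrophages. The nearest to marcksb were vamp5 (0.29), srgn (0.33) and anxa2a (0.37), which encode a vesicle SNARE, the proteoglycan serglycin and an annexin. The matched differences that chose these genes are those the paired test uses, so no test of them is given.

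The nearest to stmn2a were ctxn2 (0.25), hmgb3a (0.26) and actc1b (0.26). Their brain differences were 2.81, 3.00 and 2.55, and their day 14 differences of 0.28 to 0.33 were smaller than the 0.74 of stmn2a. The nearest to tmsb were tubb5 (0.54), fabp7a (0.70) and anxa2a (0.85). These rest in part on the day 7 value of tmsb, whose control was dim. The nearest to flna were both probe sets of fosab (0.26 and 0.34), an AP-1 factor, and si:ch73-335l21.4 (0.33). On day 2 fosab differed by 2.13 and 2.50, and on day 14 by -0.05 and 0.10.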

How the data were processed

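Total RNA of adult zebrafish brain and retina was hybridized to 12 Affymetrix arrays. The authors deposited 1 linear signal intensity for each probe set, computed with GCOS per the submitters' processing notes (version not given in the sources used here). Of 15617 probe sets, 115 manufacturer controls were left out. The platform annotation gave 1 gene symbol to 10795 of the rest, several to 135 and none listed to 4572. Symbols were updated through a current gene table (assembly GRCz12tu), which held 10711 and changed 1.

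Signals were analysed as log2(signal + 50). A filter at the 40th percentile of the averaged group means left 9301 probe sets; the by-day fits used the probe sets of the paired fit. Tests were made with limma 3.58.1 in R 4.3.3 (lmFit, and eBayes with an intensity trend), two-sided, with Benjamini-Hochberg adjustment over all 9301 and a threshold of 0.05; the procedure was tested on simulated data. Tables and plots were made in Python 3.11.15 with pandas 2.3.3 and matplotlib 3.10.9. Arrays have no read depth, and their number limits the precision.

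The pairing by day comes from the design text (matched animals) and the day in each title. Deviations of same-day arrays from the group means correlated at 0.880, 0.812, 0.758, 0.816 and 0.900 on days 2, 3, 5, 7 and 14. Both arrays of a day lie in 1 array block, and no correlation was computed between different days of a block. These values therefore cannot tell matching of the animals from a shared block. Named were all members, the 3 nearest probe sets to each, and up to 4 called genes of each list by adjusted p; where a gene had several probe sets, the one with the highest mean signal stood for it. Other genes named in the text, such as stmn2a's and marcksb's relatives that did not pass, mpx, csf1ra, lcp1, marco and cfl1l, were named after their values were seen. The members and all lists were chosen with earlier results of these data known. Alternatives were other pseudocounts, no filter, quantile normalization, no intensity trend, no pairing, the GAPDH ratio as a covariate, each array block alone or as a term, and leaving out each array or day.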

Additional observations from a re-analysis of the deposited data

Results flagged for a closer look

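The matched difference of gap43 on day 2, 2.38 in log2(signal + 50), lay far from those of the other 4 days. The nearest was 1.31, and the gap was 0.791 of the whole range, above the critical value of 0.710 for 5 values. It was the only one found in 15 sets of 5 values examined (control signals, lesioned signals and matched differences of the 5 genes). Chance flags about 1 in 20 such sets, so 1 flag among 15 sets lies near that share. Each day is 1 pair of arrays, and day 2 was the earliest measured.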

How the results depend on the processing

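For single genes, 495 alternative values kept their direction and side of the threshold, 28 lost a call, 3 gained one and 9 changed sign, and the cause was not tested. The 4 members called over the 5 days, tmsb included, became 0 without the pairing, 1 with the GAPDH ratio as a covariate and 0 over the array block of days 2 and 14 alone. The other paired alternatives gave 3 or 4. Counts over all probe sets moved with them, from 381 to 0 without pairing, 10 with the GAPDH covariate, 0 over days 2 and 14 and 165 to 573 when 1 day was left out. Without 1 array or day, the count of members called was 0 to 1 for the slope over days, 0 to 2 for brain against lesioned retina and 0 for single days. The single-day count was 0 with a pseudocount of 16 and 2 with the array block as a term. For the slope, 10 probe sets became 5 with a pseudocount of 16, 4 without a filter, 6 without the intensity trend and 1 to 12 without 1 day. For day 2, 6 became 0 with a pseudocount of 16 and 13 with the block, which also gave 8, 8 and 5 on days 3, 5 and 7. With the block, brain differed from unlesioned retina at 2261 and from lesioned retina at 1285 probe sets, against 1073 and 600. Changes of sign were all in uncalled values: stmn2a over days 3, 5 and 7 (-0.0054), and with the block on day 3 (0.0071) and day 7 (0.12), and flna with the block on day 14 (0.18). When 1 array or day was left out, the slope ran from -0.11 to 0.31 for stmn2a and from -0.038 to 0.34 for marcksb, flna between brain and unlesioned retina from -0.047 to 0.16, and tmsb on day 3 from -0.13 to 0.16. Each day and the brain have 1 array, and tmsb in control retina is near the dim end of the arrays.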

Other observations

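The brain array also gave levels for the other growth cone and axon genes. In brain against unlesioned retina 5 of 20 growth cone and microtubule regulators tested were higher and 0 lower by limma, where 6.81% of all probe sets were called higher. They were ncalda, a neurocalcin, at 3.48 ± 0.36 (limma adjusted p = 0.000569), the microtubule-associated gene map1aa at 2.22 ± 0.43 (0.0132), the membrane glycoprotein genes gpm6ab at 1.25 ± 0.25 (0.0164) and gpm6aa at 0.92 ± 0.22 (0.0312), and the kinesin gene kif5aa at 0.87 ± 0.23 (0.0487). None of these 5 was called after the lesion. Among the relatives of the members 1 of 7 was higher in brain, stmn4 at 2.09 ± 0.29 (0.00258), with a signal of 6484 in brain against 1485 ± 286 in control retina.

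Of 15 adhesion and guidance genes tested 4 were higher in brain and 0 lower, among them the guidance receptor gene robo1 at 1.75 ± 0.45 (limma adjusted p = 0.0426). The ephrin receptor gene epha4a, also counted, had a control mean of 93.1, under the minimum of 139.8, and entered only through its brain signal of 725.5 (2.43 ± 0.37, adjusted p = 0.00460). The shares of the next 2 lists lay near the 6.81% of all probe sets. In the actin list actn1 is counted, though its control mean of 134.0 also lay under that minimum. It entered only through its brain signal of 336.9. Of 37 actin genes 4 were higher, among them pfn1 at 1.99 ± 0.51 (0.0423). Of 12 axon regeneration factors 1 was higher, klf9, at 2.53 ± 0.60 (0.0322), while atf3 differed by 0.06 ± 0.38 (0.945) and jun by -0.23 ± 0.31 (0.704). The internexin gene inaa went the other way, with 488 in brain against 7622 in control retina, a difference of -3.88 ± 0.28 (limma adjusted p = 7.92e-05).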
